A study of Mus musculus with 4 samples.

Results

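The Dlx genes encode homeodomain transcription factors that are among the defining regulators of the embryonic subpallium, the ventral part of the forebrain where GABAergic neurons are born. In mice they lie in linked pairs, and in the ganglionic eminences Dlx1 and Dlx2 are known to come on in progenitors ahead of Dlx5 and Dlx6, which are direct targets of the early pair. Dlx6os1, also called Evf2, is a long noncoding RNA read from the strand opposite Dlx6 and is known to act on the Dlx5/Dlx6 locus. Described here are these 5 genes, chosen by name from the 32285 genes of the files, in single cells of the medial ganglionic eminence (MGE), the zone that supplies cortical interneurons and pallidal projection neurons.

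The MGE was dissected from e14.5 littermates of St18 heterozygous parents on a C57/BL6 ICR mix background. St18, a zinc finger transcription factor, was deleted in the whole animal, through a conditional allele and the germline driver E2a-Cre, in the group labelled St18(-/-), called null, and was intact in the group labelled wildtype, called WT. Each group had 2 libraries, and tissue of several embryos of a genotype was pooled before dissociation, so that a library is a pool and not an animal. The study asked what St18 does in MGE lineages. The 4 libraries held between 70991150 and 92984713 unique molecular identifiers (UMIs, tags that each count 1 captured RNA molecule), and 3758 to 6279 cells per library were kept, 18267 in all. St18 RNA did not separate the labels, since null replicate 2 held 89.4 CPM of St18 (UMIs of a gene per 1000000 UMIs of the stage in a library) in the SVZ stage against 58.5 and 74.1 in the WT libraries and 28.2 in null replicate 1. Among neurons null replicate 2 was again above both WT libraries, at 53.8 CPM against 29.0 and 39.99, and null replicate 1 below both, at 17.7. By the study's methods the deletion takes out internal exons and shifts the reading frame, and a recombined transcript can still be counted. Counts per gene do not separate such a transcript from an intact one, so the St18 level of null replicate 2 goes against a loss of St18 RNA without checking the label, and the groups are called by their labels. Xist, which marks female cells, was at 519 to 1499 CPM in the libraries labelled null and at no more than 0.367 in the WT libraries across the stages, so sex cannot be told apart from genotype. Library pairs shared 4 to 10 cell barcodes, at most 0.266% of the cells of either library.

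Cells were clustered without any Dlx gene and the clusters were placed in 3 stages from lists of marker genes. The VZ stage, named for the ventricular zone where radial glia divide, held 2422 cells in 4 clusters marked by Hes1, Hes5, Fabp7, Slc1a3 and similar genes. The SVZ stage, named for the subventricular zone of basal progenitors, held 6686 cells in 7 clusters marked by genes such as Dll1, Dll3 and Hes6 or by those of the cell cycle. The neuron stage held 8659 cells in 10 clusters marked by Dcx, Tubb3, Stmn2 and other neuronal genes, and the summed neuron markers ran from 5829 to 6766 CPM there against 497 to 669 in the VZ stage. The MGE list, with Nkx2-1, Lhx6 and Lhx8, stood at 2206 to 2558 CPM in neurons, while the list for lateral ganglionic eminence (LGE) and striatal neurons stood at 664 to 1067. In the VZ stage the order was the other way, at 339 to 383 CPM for the MGE list and 570 to 889 for the LGE list. Sums of different lists depend on the genes listed and do not measure shares of cells. A cluster of 188 cells whose progenitor and neuron scores lay within 0.1 of each other was left unnamed.

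Both Dlx pairs are tightly linked. On mouse build GRCm38, with GENCODE M21 annotation, Dlx1 (ENSMUSG00000041911) lies at chr2:71528113-71533981 on the plus strand and Dlx2 (ENSMUSG00000023391) at chr2:71543408-71546754 on the minus strand, with 9426 bases between them. Dlx6 (ENSMUSG00000029754) lies at chr6:6863334-6868568 on the plus strand and Dlx5 (ENSMUSG00000029755) at chr6:6877805-6882085 on the minus strand, 9236 bases apart. Dlx6os1 (ENSMUSG00000090063) runs across 51404 bases of the minus strand at chr6:6820189-6871592 and spans the whole of Dlx6, but the annotated exons of the 2 genes share 0 bases. Dlx1as, the antisense partner of Dlx1, shares 335 exonic bases with it, or 20.6% of the exons of Dlx1as. Whether the counting used the strand is not given in the sources used here, so the split of molecules between a Dlx gene and its antisense partner is uncertain.

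RefSeq start regions were held for 3 of the 5 members, and the 250 bases before the start are shown for a member of each locus because their base composition differs strongly. The Dlx2 sequence (GRCm38.p6, chr2:71546755-71547004, minus strand) overlaps no annotated gene, whereas that of Dlx6os1 (chr6:6869534-6869783, minus strand) falls in an exon of a longer annotated Dlx6os1 transcript. Capitals mark the letters TAATTA, the core that homeodomain proteins bind, which reads the same on both strands.
Dlx2: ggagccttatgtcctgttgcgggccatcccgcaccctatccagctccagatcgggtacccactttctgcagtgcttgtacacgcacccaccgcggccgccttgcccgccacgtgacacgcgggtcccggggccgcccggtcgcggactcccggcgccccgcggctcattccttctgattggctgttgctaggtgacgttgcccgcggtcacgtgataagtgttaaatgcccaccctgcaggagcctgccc
Dlx6os1: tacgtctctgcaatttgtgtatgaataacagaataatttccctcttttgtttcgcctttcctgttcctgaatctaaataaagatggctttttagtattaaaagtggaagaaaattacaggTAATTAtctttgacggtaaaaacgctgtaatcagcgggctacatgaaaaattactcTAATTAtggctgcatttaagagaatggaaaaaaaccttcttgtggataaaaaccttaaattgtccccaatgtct

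G and C made up 66.4% of the Dlx2 sequence and 33.2% of the Dlx6os1 sequence, against a median of 52.4% over 32851 such windows. The Dlx6os1 window shown holds TAATTA at 2 places, 130 and 74 bases before the start, and 4.84% of all windows hold it at least once. These letters are all A or T, and windows of like base composition were not counted apart. The share over all windows is therefore not a like background for this window. A second Dlx6os1 start has a window (chr6:6861684-6861933, minus strand) outside the annotated Dlx6os1 exons. That window is 34% G and C and holds TAATTA at 1 place, 174 bases before its start. The Dlx2 window holds no TAATTA, and none of these windows holds CAGCTG, an E-box, the kind of site that basic helix-loop-helix factors bind, which 13.0% of all windows hold. A match of letters is a description and does not show that a factor binds there.

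All 5 genes rose steeply from the VZ to the SVZ stage, and then the pairs parted: Dlx1 and Dlx2 fell in neurons while Dlx5, Dlx6 and Dlx6os1 held or rose a little. Dlx1 went from 149.9 ± 31.9 CPM (SD, n = 4 libraries) in the VZ to 872 in the SVZ and 352 in neurons, whereas Dlx5 went from 18.5 to 192 and then 254 CPM. Levels are compared between stages of 1 gene and not between genes, since counts of captured ends are not scaled by length.

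**Figure D1:**
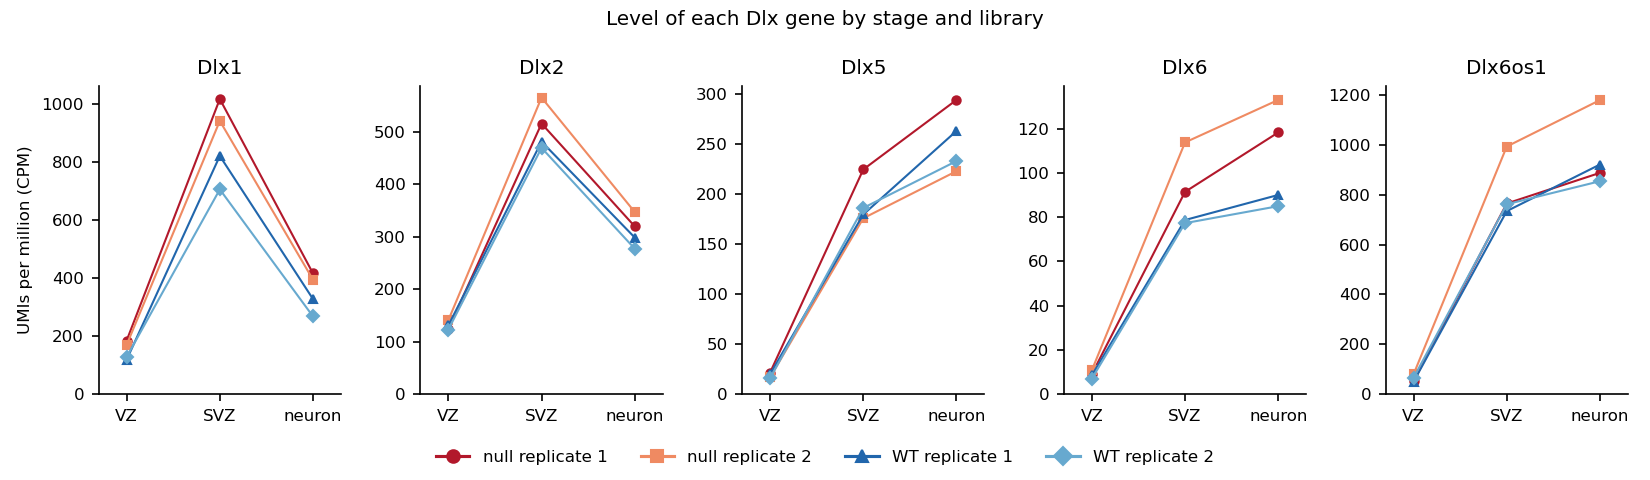
Level of each gene (CPM, linear axis from 0) in the VZ, SVZ and neuron stages, with a line for each of the 4 libraries. In every library Dlx1 and Dlx2 peak in the SVZ stage, while Dlx5, Dlx6 and Dlx6os1 are highest in the neuron stage.

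Dlx1, of the early pair, had VZ levels of 184 and 169 CPM for the null pair of libraries (replicates 1 and 2, the order used throughout) and of 118 and 128 CPM for the WT pair. Among SVZ cells it reached 1018, 943, 822 and 706 CPM in the same order, and in neurons 416, 395, 328 and 268. Every SVZ value lay above every neuron value, and every neuron value above every VZ value. In each stage both null libraries lay above both WT libraries, as for 49.6% (VZ), 42.9% (SVZ) and 42.1% (neurons) of all tested genes. The SVZ level was 5.53 to 6.94 times the VZ level within a library, and the neuron level 2.39 to 2.64 times lower than the SVZ level.

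Dlx2, its neighbor and partner in promoting neuronal differentiation of subpallial progenitors, stood at 124, 141, 131 and 123 CPM in the VZ stage of null replicates 1 and 2 and WT replicates 1 and 2. SVZ cells held 516, 566, 482 and 469.7 CPM, and neurons held 319.8, 347, 299 and 277 CPM. As for Dlx1, the 3 stages did not overlap. The changes were smaller in both directions, with SVZ levels 3.68 to 4.15 times those of the VZ.

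Dlx5, of the late pair, was at 21.4, 16.6, 20.03 and 15.8 CPM in the VZ stage in the same order of libraries. It stood at 225, 176, 179.8 and 186 CPM in the SVZ stage and at 295, 223, 263 and 233 CPM in neurons. The level rose in each library at both steps, first by 8.98 to 11.8 times and then by 1.25 to 1.47 times, but the SVZ value of null replicate 1 lay above the neuron value of null replicate 2. Dlx6 was at 8.95, 10.7, 8.45 and 6.94 CPM in the VZ stage, at 91.4, 114, 78.7 and 77.3 CPM in the SVZ stage and at 118, 133, 90.1 and 85.0 CPM in neurons. Its SVZ and neuron ranges overlapped between libraries, although each library was higher in neurons, by 1.10 to 1.29 times.

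Dlx6os1 stood at 51.1, 79.1, 49.4 and 64.9 CPM in the VZ stage, again in the order null replicates 1 and 2 and WT replicates 1 and 2. It reached 765, 993, 734 and 762 CPM in the SVZ stage and 888, 1180.0, 921 and 854 CPM in neurons. Null replicate 2 stood apart from the other 3 libraries in both later stages. The rise from VZ to SVZ was 11.7 to 14.97 times and that from SVZ to neuron 1.12 to 1.25 times.

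These stage changes were tested with edgeR on UMIs summed per library and stage, with the library as a block, over 13486 genes. From VZ to SVZ, 5 of 5 members rose, where 32.7% of all tested genes rose and 33.5% fell. On the log2 scale Dlx1 rose by 2.59 (SE 0.05, adjusted p = 7.5e-25), Dlx2 by 2.02 (SE 0.04), Dlx5 by 3.42 (SE 0.06), Dlx6 by 3.41 (SE 0.08) and Dlx6os1 by 3.81 (SE 0.06, adjusted p = 4.9e-27). With cells of high doublet score kept and the stages drawn again, the log2 rises from VZ to SVZ were over 1.5 times smaller in fold for Dlx5 (2.48), Dlx6 (2.44) and Dlx6os1 (2.50), and with stages set by ranges of a per-cell score that of Dlx6os1 was 4.39. The fold of Dlx6os1 was exceeded by 14 genes of the whole table, that of Dlx5 by 29 and that of Dlx2, the smallest of these rises, by 208. The median of the members was 3.41 and that of all genes 0.0041.

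From SVZ to neuron, 2 members fell and 3 rose, where 37.7% of all tested genes fell and 38.8% rose. Dlx1 fell by 1.38 on the log2 scale (SE 0.05, adjusted p = 1.0e-20) and Dlx2 fell by 0.78 (SE 0.04, adjusted p = 1.3e-16). Dlx5 rose by 0.33 (SE 0.04, adjusted p = 1.1e-08), Dlx6 by 0.18 (SE 0.04, adjusted p = 0.00064) and Dlx6os1 by 0.17 (SE 0.04, adjusted p = 0.00088). The rises of Dlx6 and Dlx6os1 are small. That of Dlx6 went to -0.02 (SE 0.05) and did not pass when the neuron clusters with LGE or CGE (caudal ganglionic eminence) markers were left out, and that of Dlx6os1 to 0.07 (adjusted p = 0.13) when stages were set by ranges of a per-cell score. Without the library block the log2 changes of these 2 genes were 0.17 (adjusted p = 0.21) and 0.18 (adjusted p = 0.27), and 3 of 5 members passed, as did 59.5% of all genes in either direction.

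Set directly against the VZ stage, neurons held more RNA of 5 of 5 members, where 40.1% of all genes were higher and 41.5% lower. The log2 differences were 1.21 (SE 0.05) for Dlx1, 1.25 (SE 0.04) for Dlx2, 3.75 (SE 0.06) for Dlx5, 3.59 (SE 0.08) for Dlx6 and 3.98 (SE 0.06) for Dlx6os1. With high doublet scores kept, those of the last 3 genes were 2.83, 2.64 and 2.70. These 3 stage comparisons share the same sums, so they are not independent of each other.

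The balance of the early over the late pair was measured as the UMIs of Dlx1 and Dlx2 over those of Dlx5 and Dlx6. Among VZ cells it was 10.2 and 11.3 for the null pair and 8.75 and 11.05 for the WT pair. The SVZ values were 4.85, 5.20, 5.04 and 4.46, and the neuron values 1.78, 2.08, 1.77 and 1.71. The ratio thus fell at each step in each library with no overlap between stages. On the log2 scale it fell by 1.07 ± 0.21 (SD, n = 4 libraries) from VZ to SVZ and by 1.41 ± 0.08 from SVZ to neuron, and the exact sign-flip permutation test gave p = 0.125 for each, two-sided, the smallest value that 4 libraries allow. The first step shrank to 0.43, and the whole fall from 2.49 to 1.83, when cells with high doublet scores were kept and the stages were drawn again. With stages set by score ranges, the ratio fell by 1.66 in the first step and fell by 2.97 over the whole. Without the neuron clusters with LGE or CGE markers, it fell by 1.22 from SVZ to neuron and fell by 2.29 over the whole.

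**Figure D2:**
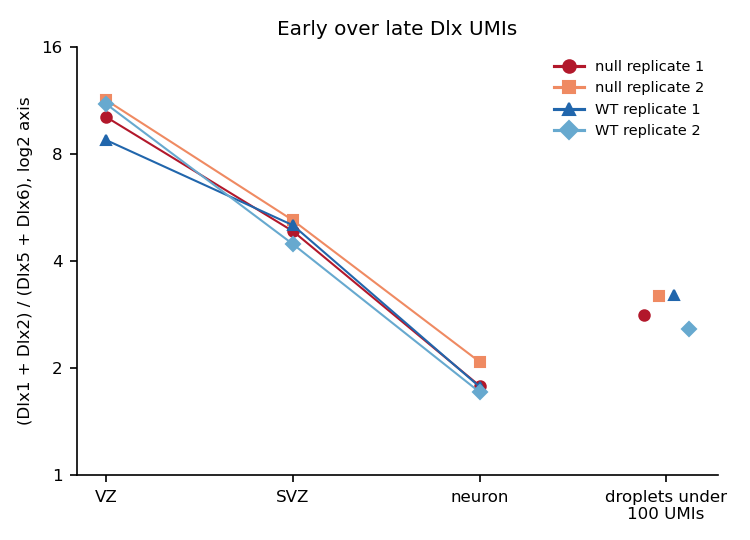
Dlx1 plus Dlx2 UMIs over Dlx5 plus Dlx6 UMIs (log2 axis) in each stage of each library, with the same ratio in droplets under 100 UMIs at the right. The ratio falls from 8.75 to 11.3 in the VZ stage to 1.71 to 2.08 in neurons, and the droplets lie between 2.58 and 3.21.

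RNA free in the suspension bears on the low VZ values. In droplets under 100 UMIs, which hold free RNA and no intact cell, Dlx1 stood at 188 to 379 CPM and Dlx5 at 109 to 152 CPM. The VZ stage lay below these levels, at 0.439 to 0.679 times for Dlx1 and 0.141 to 0.181 times for Dlx5. The early over late ratio of the droplets was 2.58 to 3.21, lower than in the VZ and SVZ stages and higher than in neurons. Shares of cells with a UMI were compared after each cell was thinned to 3000 UMIs, and microglia (86 cells, 8184 to 14340 median UMIs per library) and erythroid cells (153 cells of cluster 22, 9887 to 13112) served as classes that should lack these genes. A further 29 cells with globin genes (cluster 25), led by Sst, were left out of the erythroid class after their leading genes had been seen, and held Dlx1 in 58.6%, Dlx2 in 58.6%, Dlx5 in 55.2%, Dlx6 in 24.1% and Dlx6os1 in 79.3% of thinned cells.

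Dlx1 was found in 23.6% to 32.7% of thinned VZ cells per library, in 80.7% to 90.2% of SVZ cells and in 48.4% to 61.6% of neurons, against 18.6% of microglia (95% Wilson interval 11.8% to 28.1%) and 5.23% of erythroid cells. Dlx2 was found in 27.3% to 29.8%, 70.6% to 75.0% and 49.8% to 58.0% of the 3 stages, against 12.8% of microglia (7.29% to 21.5%) and 5.23% of erythroid cells. Pooled over libraries, Dlx2 in the VZ stage (28.2%, 26.5% to 30.1%) lay above the microglial interval, and Dlx1 (28.1%, 26.4% to 29.9%) overlapped its upper end. Pooling counts cells and not libraries as replicates. Per library, with 13 to 30 microglia in each, microglia held Dlx1 in 13.0% to 23.3% and Dlx2 in 4.35% to 23.1% of thinned cells. These shares lay below every VZ share of the same gene. Before thinning, at 7732.5 to 11461 median UMIs per VZ cell, Dlx1 was found in 36.3% to 54.8% and Dlx2 in 46.6% to 57.1% of VZ cells.

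The late genes were found in few VZ cells, and the classes that should lack them gave unlike backgrounds. Dlx5 was found in 5.95% to 7.36% of thinned VZ cells, Dlx6 in 2.44% to 5.75% and Dlx6os1 in 9.63% to 15.7%, against 3.49% (1.19% to 9.76%), 1.16% (0.206% to 6.30%) and 16.3% (9.95% to 25.5%) of microglia. The VZ shares lie within the microglial intervals, or just below in the lowest library for Dlx6os1, and cannot be told apart from that background. Erythroid cells held less, with Dlx5 in 1.96% (0.669% to 5.61%) and Dlx6os1 in 3.92% (1.81% to 8.29%), and with Dlx6 in 0 of 153 cells, which allows a share of up to 1.96% by 3 counts and up to 2.45% by the Wilson interval. That limit is on cells with a UMI after thinning, since unthinned erythroid cells held 4 Dlx6 UMIs, in 6.38% of cells of null replicate 1 and 3.33% of WT replicate 2, against 5.18% to 11.1% of unthinned VZ cells per library. After thinning, the pooled VZ share of Dlx6os1 (12.3%, 11.1% to 13.7%) lay above the erythroid interval, that of Dlx5 (6.44%, 5.53% to 7.49%) overlapped its upper end, and that of Dlx6 was 3.47% (2.81% to 4.27%). Per library, erythroid cells held Dlx5 in 0% to 4.26% and Dlx6os1 in 0% to 7.32% of thinned cells, below every VZ share of the same gene. In the SVZ stage Dlx5 reached 38.5% to 47.9%, Dlx6 20.2% to 27.8% and Dlx6os1 75.9% to 80.2% of thinned cells, and in neurons 46.5% to 55.6%, 19.9% to 30.2% and 74.8% to 81.6%. Unthinned, the neuron shares were 65.9% to 74.6% for Dlx5, 32.2% to 54.7% for Dlx6 and 84.4% to 91.4% for Dlx6os1. All of these intervals and limits pool cells over libraries and cover counting error only, not the spread between libraries.

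Cells were also sorted, after thinning to equal depth, by the pair they held. In the VZ stage 34.8% of cells (mean of 4 libraries, range 31.8% to 38.3%) held UMIs of the early pair alone, 6.62% of both pairs and 2.79% of the late pair alone, and 55.8% held neither. Of SVZ cells 42.6% held the early pair alone, 52.2% both and 2.65% the late pair alone. In neurons 27.2% held the early pair alone, 47.6% both and 13.9% (12.7% to 15.4%) the late pair alone. Late-only cells were thus a larger share of neurons than of SVZ cells (at most 3.28%) in all 4 libraries. The neurons here pool clusters of all lineages, and the part of the lineage mix in this share was not tested.

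The order of the genes was also seen without stage borders. Cells of the 3 stages were ranked in each library by the neuron score minus the VZ score and cut into 10 bins of equal size. Dlx1 peaked in bin 3 in all 4 libraries and Dlx2 in bin 2 or 3, whereas Dlx6os1 peaked in bin 6 and Dlx5 in bin 6 or 7. Dlx6 was highest in the last bin, 10, in 3 of the 4 libraries and in bin 5 in WT replicate 2. At the neuron end (bin 10) Dlx1 was down to 14.4% to 17.0% of its peak and Dlx2 to 19.7% to 23.8%, while Dlx5 kept 54.2% to 65.4%, Dlx6 87.0% to 100% and Dlx6os1 29.98% to 32.8%. Dlx6os1 was therefore further below its peak in the last bin than Dlx5 or Dlx6, in all 4 libraries. The bins pool neuron clusters of all lineages, and the part of the lineage mix in this was not tested.

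**Figure D3:**
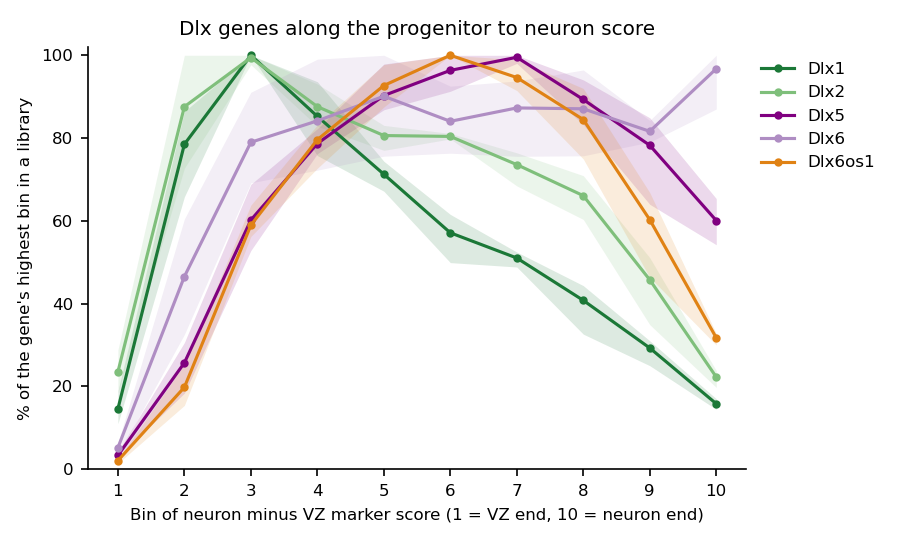
Each gene as a percentage of its highest bin in a library (y axis) across 10 equal bins of cells ranked from the VZ end to the neuron end (x axis). Lines are means of 4 libraries and bands their range, and Dlx1 and Dlx2 crest in bins 2 to 3, ahead of Dlx6os1 and Dlx5 in bins 6 to 7.

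Clusters within a stage differed widely. Among VZ clusters, cluster 17, led by Sulf1, Bcan and Aldh1l1, held 443 ± 99.1 CPM of Dlx1 and 62.7 ± 29.7 of Dlx5 (SD over 4 libraries), while cluster 8, led by Ptx3, Anxa2 and Hmga2, held 89.7 ± 28.5 and 9.06 ± 2.35. Among SVZ clusters, cluster 9, led by S phase histone genes, held the highest Dlx1 (1001 ± 133 CPM) and Dlx2 (641 ± 64.9) and the lowest Dlx5 (94.6 ± 11.8) and Dlx6os1 (334 ± 64.7). Cluster 3, led by St18, Nav2 and Prox1, held the highest Dlx6os1 of any cluster, 1607 ± 184 CPM, beside 896 ± 170 of Dlx1. The ratio of early to late UMIs went from 10.2 in cluster 9 to 3.49 in cluster 3 and to 2.77 in cluster 11, led by Dll1, Dll3 and cell division genes, within the SVZ stage.

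Among neurons, the clusters led by LGE and striatal genes held little of the early pair. Cluster 13, led by Ebf1, Nefl, Crabp1 and Isl1, held 75.1 ± 11.5 CPM of Dlx1 and 46.8 ± 3.67 of Dlx2, but 246 ± 16.7 of Dlx5 and the highest Dlx6 of any cluster, 224 ± 32.9 CPM. Cluster 16, led by Tshz2, Zfp503 and Zfp804a, was similar in the early pair (76.7 ± 15.8 and 51.0 ± 9.30 CPM). Cluster 1, an MGE-marked cluster led by Neb, Plxna4 and Maf, held 571 ± 80.9 CPM of Dlx1, 445 ± 61.2 of Dlx2 and 127 ± 22.4 of Dlx6. Cluster 21 (158 cells), led by Slc18a3, the acetylcholine vesicle transporter, with Gbx2 and Zic4, was low in the late pair too, with 51.2 ± 33.9 CPM of Dlx1, 30.3 ± 2.38 of Dlx2, 106 ± 25.5 of Dlx5 and 36.7 ± 8.63 of Dlx6 (SD, n = 3 libraries with enough cells). Its early over late ratio of 0.571 and its 1.63 Dlx6os1 UMIs per Dlx5 UMI were near the 0.476 and 1.56 of cluster 16, so a low ratio was not confined to the LGE-marked clusters.

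Summed over clusters 13 and 16, the early over late ratio was 0.325, 0.307, 0.304 and 0.311 in null replicates 1 and 2 and WT replicates 1 and 2, against 2.08, 2.45, 2.03 and 2.25 in the 3 MGE-marked neuron clusters. Dlx6os1 UMIs per Dlx5 UMI were 0.848, 1.24, 0.818 and 0.883 in the LGE-marked clusters and 3.25, 5.65, 4.08 and 4.50 in the MGE-marked clusters. Dlx6 UMIs per Dlx5 UMI were 0.804, 1.13, 0.706 and 0.737 against 0.346, 0.510, 0.373 and 0.337. None of these 3 ratios overlapped between the lineages. On the log2 scale Dlx6os1 was lower by 2.65 ± 0.08 in the LGE-marked clusters, Dlx5 was lower by 0.45 ± 0.11 and Dlx6 was higher by 0.65 ± 0.09 (SD, n = 4 libraries). This contrast was chosen after the cluster values had been seen and was not tested. Of the 3 MGE-marked clusters, cluster 15, led by Lgi1 and Htr3a, also carried CGE markers. Without it, a choice made after seeing the data, the MGE-marked values were 1.99, 2.42, 2.02 and 2.16 for the early over late ratio, 3.09, 5.33, 3.92 and 4.22 for Dlx6os1 per Dlx5 and 0.333, 0.502, 0.348 and 0.317 for Dlx6 per Dlx5, still with no overlap with clusters 13 and 16.

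**Figure D4:**
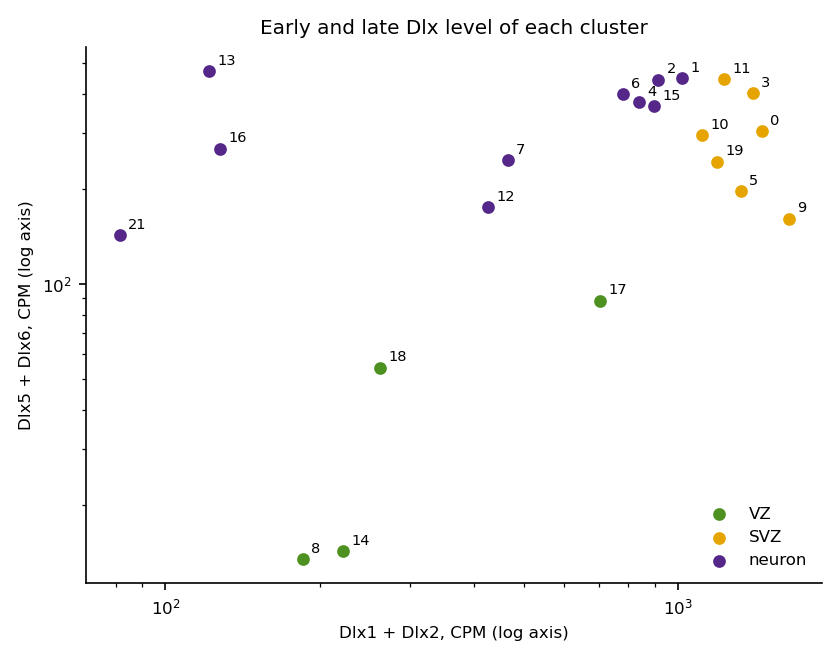
Mean level over libraries of Dlx1 plus Dlx2 (x axis, CPM, log) and of Dlx5 plus Dlx6 (y axis, CPM, log) in each numbered cluster, colored by stage. VZ clusters lie low on the y axis, SVZ clusters at the far right, and neuron clusters 13, 16 and 21 apart at the left, with the late pair high in cluster 13 and lowest among neurons in cluster 21.

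Across clusters, each pair moved with its own partner. Over 82 sums of a library and a cluster, drawn from 21 clusters and 4 libraries, Pearson's r of log2(CPM + 1) was 0.93 for Dlx1 with Dlx2 and 0.93 for Dlx5 with Dlx6, but 0.49 for Dlx1 with Dlx5. Dlx6os1 had r of 0.90 with Dlx5, 0.80 with Dlx6 and 0.71 with Dlx1. These points share libraries and depth, so the values are descriptions. Among 6475 genes, those most like Dlx1 were Zswim5 (r 0.89), Sp9, Gse1, Prox1 and Metap1d, and those most like Dlx2 were Sp9 (r 0.87), Metap1d, Dlx1as, Arl4d and Zswim5. Sp9 encodes a zinc finger factor of subpallial progenitors and neurons, and Metap1d lies on the strand of Dlx1 and ends 2918 bases before it. Dlx5 was most like Nrxn3 (r 0.93), Gm14204, Srrm4, Cyth2 and Scrt1, and Dlx6 most like Bcl11b (r 0.90), Nrxn3, Slc32a1, Dpysl3 and Tulp4. Dlx6os1 was most like Sox11 (r 0.95), Dclk2, Phf21b and Top2b, where Sox11 is a transcription factor of newborn neurons.

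Other genes with Dlx in their symbol were 4 in the files. Dlx1as was at 5.20 to 8.81 CPM in the VZ stage, 35.3 to 49.6 in the SVZ stage and 61.4 to 85.8 in neurons, and the 3 ranges did not overlap. Unlike Dlx1, it rose from SVZ to neuron, by 0.79 on the log2 scale (SE 0.05, adjusted p = 8.2e-14), with the limit on strand given above. Dlx3 had 7 UMIs over all 12 sums of a library and a stage, at most 0.190 CPM, too few for a comparison. Dlx4 and Dlx4os had 0, so their expression was not detectable at this depth.

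Genes that work with the Dlx factors were followed as 2 lists. Of 8 genes that act upstream of Dlx or pattern the progenitors, 4 rose and 4 fell from VZ to SVZ, where 32.7% of all tested genes rose and 33.5% fell. From SVZ to neuron 1 rose and 7 fell, beside 38.8% and 37.7% of all genes. From VZ to neuron, 1 rose and 7 fell, beside 40.1% and 41.5% of all genes, with a list median of -2.32 on the log2 scale against -0.010 for all genes. Olig2, a progenitor factor that also specifies oligodendrocytes, went from 163 ± 14.8 CPM in the VZ to 8.28 ± 1.63 in neurons (log2 -4.30, SE 0.06). Olig1 went from 12.5 ± 5.47 to 0.82 ± 0.62 CPM (log2 -3.79, SE 0.28), and Gsx2, a patterning factor upstream of Dlx genes in the LGE, from 30.1 ± 2.86 to 3.75 ± 1.08 (log2 -2.96, SE 0.13).

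Of 21 partners and genes downstream of Dlx, 17 rose, 2 fell and 2 did not pass from VZ to SVZ (all genes: 32.7% rose, 33.5% fell), and 15 rose, 4 fell and 2 did not pass from SVZ to neuron (all genes: 38.8% and 37.7%). From VZ to neuron 19 rose and 2 fell (all genes: 40.1% and 41.5%), with a list median of 2.73 against -0.010. Maf, a factor of MGE interneurons, went from 7.32 ± 2.96 CPM in the VZ to 289.6 ± 83.9 in neurons (log2 5.24, SE 0.09). Gad1, which makes GABA, went from 6.13 ± 1.53 to 147 ± 30.3 CPM (log2 4.61, SE 0.08), and Slc32a1, which loads GABA into vesicles, from 5.08 ± 1.05 to 116 ± 17.4 CPM (log2 4.52, SE 0.09). Between libraries labelled null and WT, 0 genes of either list passed by edgeR in the SVZ stage or in neurons, beside 0.0154% and 0.0375% of all genes. At an unadjusted p under 0.05 by edgeR there were 0 of 8 upstream and 4 of 21 downstream genes in the SVZ stage, beside 1806 of 12973 genes. In neurons there were 1 and 6, beside 2244 of 13348 genes. In the VZ stage there were 4 of 8 and 5 of 19, beside 2658 of 12027 genes. By DESeq2 2 of 21 passed in neurons, Lhx8 and Zeb2, where 2.25% of all genes did, and 0 in the SVZ stage. In the VZ stage 0 of 8 and 1 of 19 tested genes passed by edgeR, where 4.22% of all genes did, and 0 by DESeq2. That gene, Lhx8, a factor of MGE projection neurons, was lower in null (log2 -0.98, SE 0.18, adjusted p = 0.010), and with the background beside it nothing is read from the count.

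Between libraries labelled null and WT, no member passed in any stage by edgeR with 2 libraries a group. In the VZ stage 0 of 5 members passed, where 4.22% of 12027 tested genes did. At an unadjusted p under 0.05 there was 1 of 5, Dlx1, beside 2658 of the 12027 genes. In the SVZ stage 0 of 5 passed where 0.0154% of all genes did, with 0 under the unadjusted threshold, beside 1806 of 12973 genes. In neurons 0 of 5 passed where 0.0375% did, with 1, Dlx6, under the unadjusted threshold, beside 2244 of 13348 genes. DESeq2 also called 0 members at adjusted p in each stage, where 2.25% of all genes passed in neurons. Its shares of all genes in the VZ and SVZ stages are not given in this paragraph, so nothing is read from those counts. At an unadjusted p under 0.05 by DESeq2 there was 1, Dlx6 in neurons. The share of all genes there is not given, so nothing is read from that count. The largest differences were Dlx6 in neurons, 0.37 on the log2 scale (SE 0.12, adjusted p = 0.20), Dlx1 in the VZ stage, 0.32 (SE 0.13, adjusted p = 0.16), and Dlx1 in neurons, 0.30 (SE 0.14, adjusted p = 0.33). Dlx2, Dlx5 and Dlx6os1 differed by -0.15 to 0.07 across the stages. Neurons of the labels also fell in different clusters. Cluster 1, with the highest neuronal Dlx1, took 19.2% and 28.3% of neurons in the null libraries and 8.22% and 6.0% in the WT libraries, while cluster 2 took 10.1% and 2.49% against 27.7% and 21.6%. With equal numbers of cells of each cluster in every library, the neuron difference was 0.23 for Dlx6 (adjusted p = 0.40) and 0.24 for Dlx1 (adjusted p = 0.42).

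In raw CPM the libraries labelled null tended to be higher, and so were many genes. Both null libraries lay above both WT libraries for 2 of 5 members in the VZ stage (Dlx1 and Dlx6) where 49.6% of all tested genes did, for 4 of 5 in the SVZ stage (all but Dlx5) where 42.9% did, and for 3 of 5 in neurons (Dlx1, Dlx2 and Dlx6) where 42.1% did. Without TMM scaling the median of all genes moved to 0.22 in the VZ stage, 0.16 in the SVZ stage and 0.14 in neurons on the log2 scale, and Dlx1 in the VZ stage then passed (0.53, adjusted p = 0.010), as did 12.3% of all genes. The LGE and CGE marker sums moved the same way, with CGE markers at 359 to 429 CPM in null neurons and 241 to 285 in WT neurons, and LGE markers at 1029.5 to 1067 and 664 to 928. In neurons the lists of progenitors and dividing cells were higher in null as well, with VZ markers at 946 to 948 CPM against 748 to 797, SVZ markers at 427 to 465 against 338 to 403 and dividing markers at 405 to 504 against 331 to 332. The oligodendrocyte precursor list was also higher. Other lists were not: the MGE (2375 to 2558 against 2206 to 2511), neuron, pallial and microglial sums overlapped. Endothelial (4.92 to 8.72 against 10.4 to 12.3), pericyte, meningeal and erythroid sums were lower in null. The part of these lists in the Dlx differences was not tested.

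Leaving out 1 library changed these calls in some of the fits, and only fits with calls among the members are described here. In these fits the lone null library was assumed to vary like the WT pair. Without null replicate 1, the library with the lower St18, 3 of 5 members passed in the SVZ stage where 31.7% of all genes did, and 2 of 5 in neurons where 21.0% did. Dlx5 was lower by 0.28 in the SVZ stage (adjusted p = 0.00032) and by 0.33 in neurons (adjusted p = 0.025), Dlx6 was higher by 0.32 and 0.43 (adjusted p = 0.0019 and 0.0045), and Dlx6os1 was higher by 0.18 in the SVZ stage (adjusted p = 0.00099). Without null replicate 2, 1 of 5 passed in the VZ stage and 2 of 5 in the SVZ stage, where 14.0% of all genes did in each. Dlx1 was higher by 0.42 in the VZ stage (adjusted p = 1.4e-05) and by 0.32 in the SVZ stage (adjusted p = 0.00010), and Dlx5 in the SVZ stage turned to 0.20 (adjusted p = 0.0061). Among SVZ cells the null libraries thus lay on either side of the WT libraries for Dlx5, at 225 and 176 CPM against 179.8 and 186.

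The change from VZ to neuron was also compared between the labels. In the test of the stage and genotype interaction 0 of 5 members passed at adjusted p, where 0.0742% of all genes did. By edgeR and by DESeq2 1 of 5, Dlx2, had an unadjusted p under 0.05 (log2 difference of changes 0.19, SE 0.08, adjusted p = 0.57). The share of all genes at the unadjusted threshold is not given, so nothing is read from that count. The early over late ratio of neurons was 0.15 higher on the log2 scale in the libraries labelled null, with p = 0.333 in an exact permutation test of the labels, two-sided, the smallest value that 2 libraries against 2 allow, so this design cannot reach p 0.05 for it. With a library left out, this difference ran from 0.034 (without null replicate 2) to 0.258 (without null replicate 1).

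**Figure D5:**
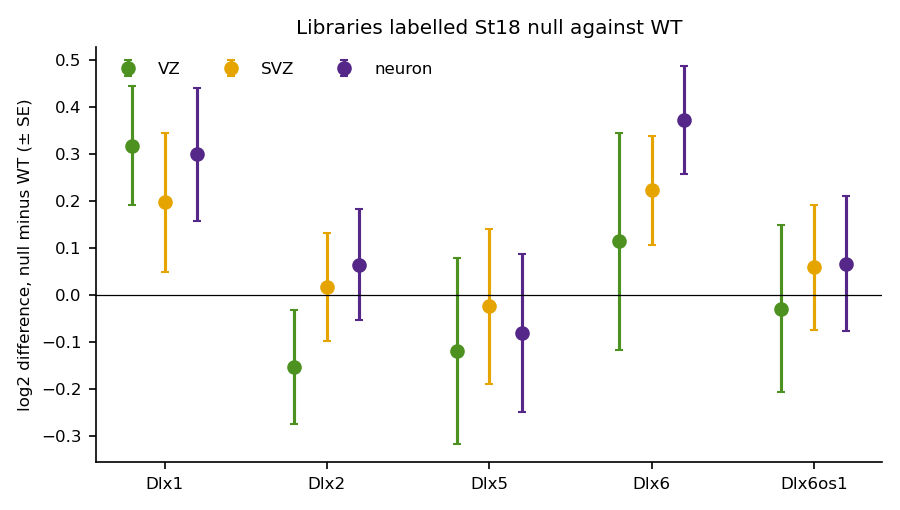
Log2 difference between libraries labelled null and WT (y axis, ± SE, edgeR) for each gene (x axis) in the VZ, SVZ and neuron stages. Dlx1 and Dlx6 lie above 0 in all 3 stages, Dlx5 below 0 in all 3 (above 0 with library totals), and Dlx2 and Dlx6os1 on either side of it, and no difference passed at adjusted p 0.05.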

How the data were processed

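Single cells of e14.5 MGE were profiled by droplet RNA sequencing in 4 libraries. The deposited matrices held raw UMI counts per gene and barcode, made by the authors with Cell Ranger, version 5.0.1 and build GRCm38 in the submitters' processing notes. Barcodes were kept from 3000 UMIs and 200 genes upward, where mitochondrial genes took no more than 10% of UMIs. In each library the cells with the highest doublet scores, computed against simulated doublets, were left out at 0.8% per 1000 cells (120 to 352 cells). Cells were clustered on 2000 variable genes without Dlx genes (49 components, 20 neighbours, Leiden resolution 1.4, igraph 0.11.9) into 26 clusters, which were named from marker lists. The margin of 0.1 for an unnamed cluster was chosen after seeing the data. The members and lists were chosen with earlier results of these data known.

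Counts were summed per library and stage, filtered with filterByExpr, scaled by TMM and tested with edgeR 4.0.16 (R 4.3.3, quasi-likelihood test, Benjamini-Hochberg adjustment, threshold 0.05), with the library as a block for stages and genotype alone within a stage. DESeq2 1.42.0 was an alternative. The script was tested on simulated data. Single ratios were tested with exact permutation tests over all sign flips or label splits (numpy 2.4.6). Shares of cells carry 95% Wilson intervals (scipy 1.17.1). Replicate numbers follow accession order and pair no samples between genotypes. The study calls the libraries biological replicates of littermates, each pooled over embryos. Genotype p-values within a stage measure the spread between these pools. With the library as a block, stage p-values measure the spread of the stage change within a library across the libraries. In these bulk sums, fewer cells with a gene and less RNA per cell cannot be told apart. The 5 members were named in every comparison, with other Dlx genes of at least 10 CPM, the 3 genes of each list with the largest change from VZ to neuron, and the 5 genes most like each member among those with at least 20 CPM, of which 1 is not reported here. Lhx8 and the comparison of LGE-marked with MGE-marked neurons were chosen after their values were seen.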

Additional observations from a re-analysis of the deposited data

Results flagged for a closer look

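The rise of Dlx1 from the VZ to the SVZ stage stood apart in WT replicate 1, at 2.80 on the log2 scale of CPM, where the other 3 libraries lay between 2.47 and 2.48. Its gap to the nearest library was 0.972 of the whole range, above the 95% critical value of Dixon's test for 4 values. Of 18 such values examined this was the only 1 to pass, and chance passes about 1 in 20. The library also had the lowest VZ level of Dlx1, 118 CPM, and the cause was not tested.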

How the results depend on the processing

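Over the alternatives run, the members' stage changes kept direction and call in 190 of 195 values, and the early over late ratio, with the genotype difference taken in neurons, kept its direction in 40 of 40. The genotype difference of that ratio in the VZ stage (log2 0.13) turned to -0.20 with score ranges, -0.012 with doublets kept, -0.028 as Dlx2 over Dlx5 and -0.042 without WT replicate 1, and in the SVZ stage (0.083) to -0.0050 without WT replicate 2. Without the replicate block, that is without the library as a term, 3 members passed from SVZ to neuron, beside 59.5% of all genes, and Dlx6 (0.17) and Dlx6os1 (0.18) did not. No pairing of null with WT libraries was made, since their numbers share no source. Dlx6os1 from SVZ to neuron also failed with cells of at least 2000 UMIs (0.10, adjusted p = 0.088), and Dlx6 turned to -0.023 without LGE- or CGE-marked neurons.

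Differences between genotypes were less stable, with 160 of 195 values unchanged in direction and call, 27 turned in sign and 8 newly past the threshold with their sign kept. Of the 27, 1 also passed, Dlx5 in the SVZ stage without null replicate 2 (0.20, adjusted p = 0.0061). Members passing numbered 0 in each stage, 1 in the VZ stage with library totals, and 0 to 1 (VZ), 0 to 3 (SVZ) and 0 to 2 (neuron) with a library left out. Among all genes, the VZ count of 507 became 1481 with library totals, 975 with no filter, 336 with at least 5000 UMIs, 191 with score ranges and 79 to 3408 with a library left out. The SVZ count of 2 became 197 with DESeq2, 9 with library totals, 555 with no filter and 43 to 4161 with a library left out. The neuron count of 5 became 300 with DESeq2, 171 with library totals, 3 with no filter, 10 and 33 with at least 2000 and 5000 UMIs, 14 with doublets kept, 11 without LGE- or CGE-marked clusters, 8 with equal cells per cluster and 69 to 2822 with a library left out. The highest counts came without null replicate 1. The cause was not tested.

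The genotype signs that turned were all of values that did not pass in the full data. In the VZ stage, library totals gave Dlx2 0.060, Dlx5 0.086 and Dlx6os1 0.19. Keeping doublets gave Dlx5 0.15 and Dlx6os1 0.16, and score ranges gave 0.23 and 0.52. Cells of at least 5000 UMIs gave Dlx6 -0.10 and Dlx6os1 0.11, and those of at least 2000 gave Dlx6os1 0.20. In the SVZ stage, library totals gave Dlx5 0.13 and equal clusters gave Dlx6os1 -0.013. In neurons, Dlx5 was 0.060 with library totals and 0.00069 with at least 5000 UMIs. With a library left out, the VZ ranges were -0.39 to 0.084 for Dlx5, -0.0034 to 0.29 for Dlx6 and -0.30 to 0.23 for Dlx6os1. The SVZ ranges were -0.0044 to 0.038 for Dlx2, -0.28 to 0.20 for Dlx5 and -0.061 to 0.18 for Dlx6os1. The neuron ranges were -0.0060 to 0.13 for Dlx2, -0.33 to 0.15 for Dlx5 and -0.094 to 0.23 for Dlx6os1. With 2 libraries a group, depth limits the VZ values of the late genes most, with 229 Dlx6 and 484 Dlx5 UMIs over all libraries.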

Other observations

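Cells outside the 3 stages also held Dlx UMIs. The 188 unnamed cells, led by Snhg11, Pfkp and Lrp1b, were at 600.3 ± 153 CPM of Dlx1, 166 ± 48.97 of Dlx5 and 908 ± 113 of Dlx6os1 (SD, n = 4 libraries). The 44 oligodendrocyte precursor-like cells, led by Olig1, Pdgfra and Sox10, were at 76.4 ± 88.1 CPM of Dlx1 and 21.5 ± 18.9 of Dlx6os1, with too few cells for a comparison. Erythroid cells were at 14.4 ± 11.98 CPM of Dlx1 and microglia at 67.2 ± 20.8.

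Within neurons, cells that held a Dlx1 UMI at equal depth held a Dlx6os1 UMI in 84.3% to 90.7% of cases per library, against 65.4% to 67.8% of neurons without a Dlx1 UMI. Neuron clusters differed in both genes, with Dlx1 in 79.4% and Dlx6os1 in 95.4% of thinned cells of cluster 1. Cluster 13 held them in 18.0% and 36.2%. The shares here pool all neuron clusters, and they were not compared within clusters. For Dlx5 the neuron shares were 48.9% to 57.2% with a Dlx1 UMI and 42.9% to 53.9% without. In the SVZ stage Dlx6os1 was held by 76.0% to 81.8% of cells with a Dlx1 UMI and 67.9% to 75.3% of those without, and Dlx5 by 37.7% to 47.5% and 41.0% to 51.9%.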
